A study of Mus musculus with 42 samples.

Results

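This section describes 39 mouse genes of DNA repair and of the DNA damage checkpoints in whole lung, 70 days after exposure to iron ion (56Fe) particles. A listed gene entered if a probe of the deposited signal table carries its symbol or an alias. Each is represented by its probe of highest mean signal over the 42 arrays, so the choice of probe used no comparison between groups. The list of genes itself was made with earlier results of these data known. The 39 genes were picked from 19057 genes with a named probe, and 29 of them had a probe detected often enough to be tested (detection p under 0.01 on at least 13 arrays), among 10297 genes with such a probe.

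The fractionated group had 14 lungs (7 male, 7 female) from mice given 0.2 Gy on 5 occasions, the acute group 15 lungs (8 male, 7 female) from mice given 1.0 Gy in 1 exposure, and the control group 13 lungs (7 male, 6 female) from unirradiated mice. All 42 mice, controls included, were of the 129S2 K-rasLA1 strain and carried the G12D mutant of K-ras. K-rasLA1 is a latent oncogenic allele that becomes active through sporadic recombination in somatic cells, so lung tumours can arise in every group without irradiation. RNA came from 1 whole left lung per mouse, and the labels state no age. The study's design text counts 13 fractionated animals, while the labels name 14 fractionated samples, all used here. The authors' own value table gives values for 13 of the 14, its empty column being that of the lung called fractionated replicate 13 below. Replicate numbers were given here in accession order. The 42 arrays were treated as 1 mouse each, as the design text has RNA taken from each animal.

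DNA repair is divided by the lesion it handles. Homologous recombination and end joining rejoin double-strand breaks, a typical lesion of densely ionising particles. Homologous recombination copies a sister chromatid and so works mainly in cells that have replicated their DNA, while end joining works throughout the cell cycle. Base excision repair replaces single damaged bases and seals single-strand breaks, nucleotide excision repair cuts out bulky distorting lesions, mismatch repair corrects replication errors, and the Fanconi anaemia proteins unhook crosslinks. Damage kinases such as Atm and Atr sense breaks and stalled forks and signal through checkpoint kinases to halt the cell cycle. Many of these proteins also serve ordinary DNA replication, and their genes are known to be more active in dividing cells.

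Values below are log2 intensities after background correction and quantile normalization across all arrays. Differences are on the same log2 scale, from a limma fit with group and sex as terms, and adjusted p-values are Benjamini-Hochberg over all 17927 tested probes. On every array the alveolar type 2 cell gene Sftpc lay between 14.24 and 15.07 and the club cell gene Scgb1a1 between 14.52 and 15.20. Some other markers of these cells were low in 1 lung, fractionated replicate 13, as given below. Between 16264 and 18289 probes were detected per array. 1 library stood apart: fractionated replicate 13 correlated with the median profile at r = 0.864, against 0.961 to 0.992 for the other 41 arrays, so the results it touches are also given without it. The arrays came from 8 slides, of which 7 held all 3 groups. In whole tissue, fewer cells of a type and less RNA per cell cannot be told apart.

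Of the 39 genes, 23 were detected on all 42 arrays. The listed genes comprised 5 of homologous recombination (3 tested), 6 damage kinase and checkpoint genes (3 tested), 5 of end joining (3 tested), 11 of base excision and single-strand break repair (10 tested), 8 of nucleotide excision repair (8 tested), 2 of mismatch repair (2 tested) and 2 of the Fanconi pathway (0 tested). The 10 genes that failed the detection filter were Brca1, Nbn, Atr, Chek1, Mdc1, Xrcc4, Xrcc5, Neil1, Fanca and Fancd2, and 7 of these were detected on no array. Fancd2 was detected on 3 arrays, the oxidised base glycosylase Neil1 on 6 and Chek1 on 1. Among the tested genes, the recombination mediator Brca2 was near the detection limit: it was detected in 11 of 14 fractionated lungs, 9 of 15 acute lungs and 6 of 13 control lungs. The checkpoint kinase Chek2 was detected in 9 fractionated, 12 acute and 8 control lungs. The end joining ligase Lig4 was detected in 5 fractionated, 11 acute and 10 control lungs.

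In fractionated against control lungs, none of the 29 tested genes was called at an adjusted p under 0.05 in limma, and no probe of the 17927 was (0%). At an unadjusted p under 0.05, 3 of 29 genes passed, beside 4.37% of all probes. Of these, 2 of 29 were higher, beside 2.1% of probes, and 1 of 29 was lower, beside 2.28%. The higher ones were the DNA polymerase subunit gene Pole4 and the recombination gene Brca2, and the lower one was the nucleotide excision gene Xpc. By direction alone, 22 of 29 genes were higher in fractionated lungs, with a median difference of 0.077, against 48.8% of all probes and a median of -0.0040 over them. Without replicate 13, 17 of 29 were higher and the median was 0.028, beside -0.00027 over all probes.

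Homologous recombination genes were all higher (3 of 3, median 0.26) in fractionated lungs, and 2 of 3 were higher without replicate 13 (median 0.11). Brca2, a mediator of recombination at broken DNA, had a lowest, median and highest value of 5.26, 6.01 and 8.02 in fractionated lungs, of 5.45, 5.69 and 6.81 in acute lungs and of 5.13, 5.60 and 6.06 in control lungs. The highest fractionated value was that of replicate 13, the next being 6.39, and the groups overlapped over most of their range. Its difference against controls was 0.44 (SE 0.17, 95% interval 0.085 to 0.79, limma p = 0.0163, adjusted p = 0.934), and 0.29 without replicate 13 (p = 0.0312, adjusted p = 1.00). Within the 7 slides that held both groups, and with replicate 13 left out as in all within-slide values here, Brca2 was higher in fractionated lungs on 6, over a span of -0.14 to 0.76. Mre11a encodes the nuclease of the complex that first processes a broken end. It spanned 7.22 to 9.82 around a median of 7.67 in fractionated lungs, 7.28 to 7.82 around 7.60 in acute lungs and 7.22 to 8.0 around 7.50 in control lungs. Apart from replicate 13, no fractionated lung was above 7.95, so the ranges of the 3 groups nearly coincided. The Mre11a difference was 0.26 (SE 0.15), and 0.11 without replicate 13. Rad50, the partner ATPase of Mre11a, differed by 0.015, and by -0.0104 without replicate 13.

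Damage kinase and checkpoint genes were higher in 3 of 3 cases with a median of 0.077, and in 2 of 3 with a median of 0.041 without replicate 13. Chek2, an effector kinase activated by Atm, ranged from 5.26 to 6.67 (median 5.88) in fractionated lungs, from 5.25 to 6.52 (median 5.98) in acute lungs and from 4.97 to 6.12 (median 5.77) in control lungs. The ranges of the 3 groups overlapped over most of their span. Its fractionated minus control difference was 0.20 (SE 0.13), 0.15 without replicate 13. Trp53bp1, which shields broken ends from resection, reached from 8.88 to 9.95 (median 9.42) in fractionated, from 8.97 to 9.91 (median 9.44) in acute and from 8.99 to 9.61 (median 9.40) in control lungs, a difference of 0.077 in the fractionated group. The apical kinase Atm differed by 0.042, and by -0.047 without replicate 13, which turned its direction. Other tested probes ran lower for Atm (-0.30 and -0.19) and Trp53bp1 (-0.12 and -0.071), and higher for Chek2 (0.23). The direction for Atm and Trp53bp1 thus depended on the probe.

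End joining genes showed no common direction, with 1 of 3 higher and a median of -0.00083 (-0.039 without replicate 13). Xrcc6, the smaller Ku subunit that binds DNA ends, lay between 10.02 and 14.50 (median 10.27) in fractionated lungs, between 9.94 and 10.71 (median 10.24) in acute lungs and between 9.97 and 10.43 (median 10.13) in control lungs. The value of 14.50 belonged to replicate 13, and without it the fractionated maximum was 10.57. Its difference was 0.38 (SE 0.25) over all lungs and 0.092 without replicate 13. Lig4, which seals the joined ends, spanned 5.36 to 7.28 (median 5.71) in fractionated lungs, 5.01 to 6.54 (median 5.81) in acute lungs and 5.47 to 6.40 (median 5.83) in control lungs, and differed by -0.052 (-0.16 without replicate 13, the lung at 7.28). Prkdc, the catalytic subunit of the DNA-dependent protein kinase, differed by -0.00083 (-0.039 without it).

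Base excision and single-strand break genes were higher in 10 of 10 cases, with a median of 0.16, while 7 of 10 were higher with a median of 0.059 without replicate 13. Pole4, an accessory subunit of the replicative polymerase epsilon that also takes part in repair synthesis, had the lowest unadjusted p of the 29 genes. Its lowest, median and highest values were 7.40, 7.61 and 8.69 in fractionated lungs, 7.15, 7.56 and 7.79 in acute lungs and 6.97, 7.37 and 7.87 in control lungs. No fractionated lung was below 7.40 while the control median was, and the upper parts of the ranges overlapped. The difference from controls was 0.35 (SE 0.0998, 95% interval 0.15 to 0.55, limma p = 0.0010, adjusted p = 0.934) and 0.29 without replicate 13 (p = 0.0017). With slide as a block it was 0.30, and it was positive on 6 of 7 slides (-0.020 to 0.64). Lig1, which joins Okazaki fragments and seals repair patches, spanned 7.46 to 11.27 (median 8.01) in fractionated, 7.50 to 8.56 (median 8.03) in acute and 7.18 to 8.39 (median 7.85) in control lungs. The Lig1 difference of 0.39 (SE 0.21) was 0.17 without replicate 13, the lung at 11.27. Apex1, the endonuclease that cuts at abasic sites, ranged from 5.48 to 8.23 (median 6.42) in fractionated lungs, from 6.04 to 6.72 (median 6.29) in acute lungs and from 5.35 to 6.79 (median 6.14) in control lungs, and differed by 0.28 (0.15 without replicate 13). Ung, which removes uracil from DNA, lay between 6.65 and 10.58 (median 7.35) in fractionated, 6.82 and 7.94 (median 7.25) in acute and 6.75 and 7.86 (median 7.33) in control lungs, with a difference of 0.31 that was 0.092 without replicate 13, the lung at 10.58. The remaining 6 genes of this pathway differed by less: the ligase Lig3 by 0.17, the strand break sensor Parp1 by 0.14, the gap-filling polymerase Polb by 0.048, the scaffold Xrcc1 by 0.046, the second sensor Parp2 by 0.033 and the 8-oxoguanine glycosylase Ogg1 by 0.018. Without replicate 13 these were 0.091 for Lig3, 0.014 for Parp1 and 0.027 for Polb, and they turned negative for Xrcc1 (-0.018), Parp2 (-0.015) and Ogg1 (-0.013). With all lungs, other tested probes differed by 0.030 for Lig1, 0.21 for Parp1, 0.18 for Parp2, and 0.027 and -0.040 for Lig3.

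**Figure D1:**
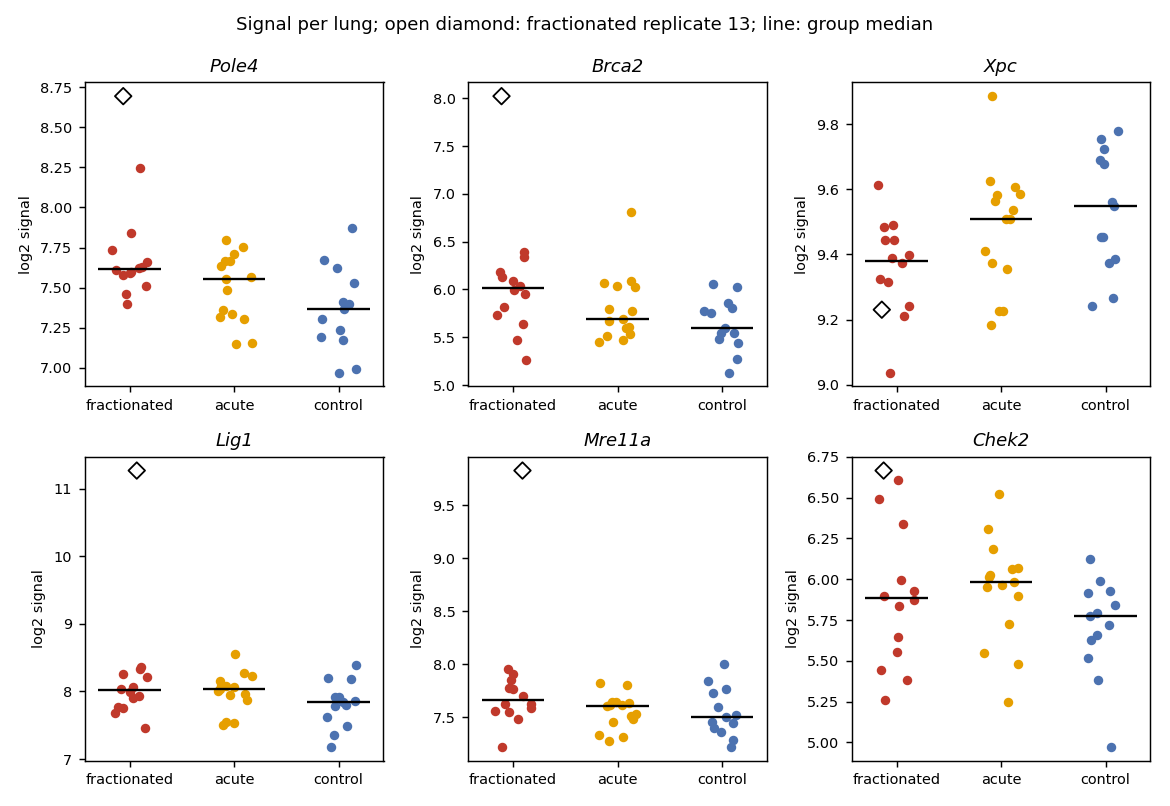
Log2 intensity of Pole4, Brca2, Xpc, Lig1, Mre11a and Chek2 in each lung (points) of the fractionated, acute and control groups, with a line at each group's median; the open diamond is fractionated replicate 13. The groups overlap in all 6 panels, and replicate 13 is the top point for Lig1 at 11.27 and Mre11a at 9.82.

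Nucleotide excision genes did not share the direction of base excision genes, with 3 of 8 higher and a median of -0.052 in fractionated lungs (3 of 8 and -0.038 without replicate 13). Xpc, which recognises helix distortion with Rad23b, had a lowest, median and highest value of 9.04, 9.38 and 9.61 in fractionated lungs, of 9.18, 9.51 and 9.89 in acute lungs and of 9.24, 9.55 and 9.78 in control lungs. The fractionated median lay below both other medians, with overlapping ranges. The difference was -0.17 (SE 0.068, 95% interval -0.31 to -0.033, limma p = 0.0165, adjusted p = 0.934), and -0.16 without replicate 13 (p = 0.0200). Xpc was lower in fractionated lungs on 6 of 7 slides (-0.29 to 0.036). Ddb2, whose product with Ddb1 marks ultraviolet lesions, spanned 6.86 to 8.45 (median 7.68) in fractionated lungs, 7.29 to 8.47 (median 7.81) in acute lungs and 7.13 to 8.24 (median 7.80) in control lungs, a difference of -0.092 (-0.14 without replicate 13). The helicase gene Ercc2 differed by -0.11 (-0.069 without replicate 13), the damage verification gene Xpa by -0.065 and the incision nuclease Ercc5 by -0.038 (-0.0100). Ddb1 and the incision nuclease subunit Ercc1 both differed by 0.12 (0.065 and 0.10 without that lung), and Rad23b by 0.012 (0.028). Other tested probes of these genes had the opposite sign: 0.044 for Ercc2, 0.077 for Ercc5, 0.022 and 0.091 for Ddb2, and -0.13 for Rad23b. The mismatch repair genes Msh6, which recognises mispaired bases, and Pms2, which acts after that recognition, were both higher, by 0.22 and 0.18, which were 0.049 and 0.095 without replicate 13 (median 0.072).

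**Figure D2:**
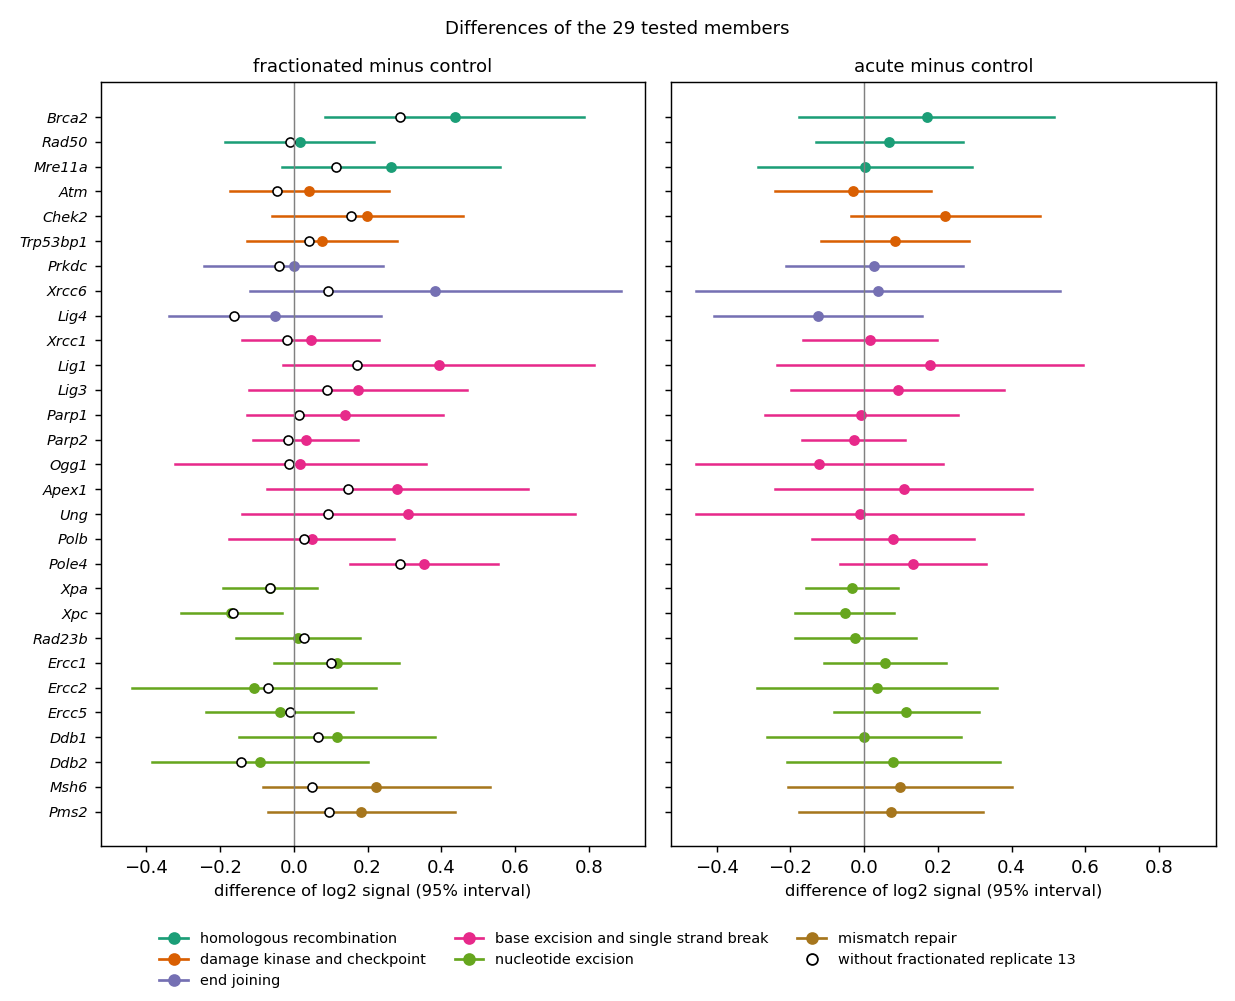
Difference in log2 intensity, fractionated minus control (left) and acute minus control (right), for the 29 tested genes, coloured by pathway; filled points are the limma estimates with 95% intervals and open circles the estimates without fractionated replicate 13. In the left panel only the intervals of Pole4, Brca2 and Xpc exclude 0, and in the right panel none does.

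After the acute dose, none of the 29 genes was called against controls, as no probe was (0%), and 0 of 29 passed an unadjusted p under 0.05 beside 1.41% of all probes. Of the 29 genes, 19 were higher, with a median of 0.038, beside 53.3% of all probes and a median of 0.0075. By the probes used, all differences lay between -0.12 and 0.22. Chek2 was at the top with 0.22 (SE 0.13, 95% interval -0.035 to 0.48, limma p = 0.0884, adjusted p = 1.00), and was positive on 7 of 7 slides (0.0052 to 0.41). At the bottom was Lig4 with -0.12 (SE 0.14), negative on 6 of 7 slides. Pole4 differed by 0.13 (SE 0.098), Brca2 by 0.17 (SE 0.17), Lig1 by 0.18 (SE 0.21), Trp53bp1 by 0.085 (SE 0.0996) and Xpc by -0.052 (SE 0.067). Ercc5 differed by 0.11 (SE 0.097), with lowest, median and highest values of 9.40, 9.66 and 10.15 in acute lungs and 9.29, 9.59 and 10.05 in control lungs. Other tested probes of these genes differed by 0.058 for Chek2, -0.14 for Lig1, -0.098 and -0.011 for Trp53bp1 and 0.071 for Ercc5. Other Atm probes differed by -0.27 and -0.22, below the range given above. By pathway, the medians were 0.069 in homologous recombination, 0.085 in the checkpoint genes, 0.028 in end joining, 0.047 in base excision repair, 0.018 in nucleotide excision repair and 0.085 in mismatch repair. The acute and fractionated comparisons share the 13 control lungs, so the 2 sets of values are not independent.

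Set directly against the acute lungs at the same total dose, fractionated lungs had no called gene (0 of 29, beside 0% of probes). Pole4 alone passed an unadjusted p under 0.05, beside 2.08% of all probes. Its fractionated minus acute difference was 0.22 (SE 0.096, 95% interval 0.027 to 0.42, limma p = 0.0266, adjusted p = 1.00), and 0.16 without replicate 13 (p = 0.0670). The next were Mre11a at 0.26 (SE 0.14, and 0.11 without replicate 13), Xpc at -0.12 (SE 0.066) and Ercc5 at -0.15 (SE 0.095). Ercc5 lay between 9.09 and 10.04 (median 9.54) in fractionated lungs. Ddb2 differed by -0.17 (SE 0.14), Brca2 by 0.27 (SE 0.17), Ung by 0.32 (SE 0.22) and Xrcc6 by 0.35 (SE 0.24), of which the last 3 were 0.12, 0.10 and 0.053 without replicate 13. The median over the 29 genes was 0.071, with 19 of 29 higher beside 45.4% of all probes, and -0.0088 with 13 higher without replicate 13, so the direction of the median depended on that lung. An F test over the 3 groups called none of the 29 genes or of the probes (0%) at an adjusted p under 0.05. At an unadjusted p it passed Pole4 (F = 6.43, p = 0.0036) and Xpc (F = 3.31, p = 0.0461), beside 2.06% of all probes, both with an adjusted p of 1.00 in limma.

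None of the 29 genes was called by sex, although Xpa came close to the threshold and passed it under several alternatives. Between 22 male and 20 female lungs, limma called 318 probes (1.77%) and 0 of the 29 genes, and 10 of 29 passed an unadjusted p under 0.05 beside 16.8% of all probes. Of those, 4 of 29 were higher in males, beside 8.93% of probes, and 6 of 29 lower, beside 7.9%. In all, 6 of 29 were higher in males, with a median of -0.064, beside 48.7% of all probes and a median of -0.0046. Without replicate 13, a female lung, 12 of 29 were higher and the median was -0.020.

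Xpa, which verifies the lesion before nucleotide excision, had the lowest p of the 29 genes in this comparison. Its lowest, median and highest values were 9.83, 10.16 and 10.49 in male lungs and 9.61, 10.03 and 10.26 in female lungs, overlapping over most of the range. The male minus female difference was 0.18 (SE 0.051, 95% interval 0.076 to 0.28, limma p = 0.0011, adjusted p = 0.0546). It was within the threshold without replicate 13 (adjusted p = 0.0482) and with slide as a block (adjusted p = 0.0210), and positive on 6 of 7 slides. Chek2 spanned 4.97 to 6.19 (median 5.75) in male lungs and 5.44 to 6.67 (median 5.97) in female lungs, a difference of -0.33 (SE 0.10, limma adjusted p = 0.0875). Another Chek2 probe differed by -0.16. Pole4 spanned 6.97 to 8.25 (median 7.36) in male and 6.99 to 8.69 (median 7.63) in female lungs. The Pole4 difference was -0.24 (SE 0.080, limma adjusted p = 0.104, and 0.0169 with slide as a block), negative on 7 of 7 slides (-0.45 to -0.033). The single-strand break sensor Parp2 spanned 9.91 to 10.38 (median 10.13) in male lungs and 10.04 to 10.92 (median 10.23) in female lungs, a difference of -0.15 (SE 0.057). The replicative ligase gene Lig1 spanned 7.18 to 8.34 (median 7.88) in male and 7.48 to 11.27 (median 8.03) in female lungs, with a difference of -0.37 (SE 0.17) and of -0.22 without replicate 13. Parp2 and Lig1 were lower in males on 7 of 7 slides, as was Msh6. Other probes differed by -0.41 for Lig1 and -0.31 for Msh6, but by only -0.0063 for Parp2. The incision nuclease subunit Ercc1 spanned 8.50 to 9.33 (median 8.90) in male and 8.28 to 9.12 (median 8.66) in female lungs, differed by 0.16 (SE 0.067) and, like Rad23b, was higher in males on 7 of 7 slides. Another Rad23b probe differed by -0.0083. Xpc spanned 9.04 to 9.89 (median 9.52) in male and 9.18 to 9.68 (median 9.39) in female lungs, a difference of 0.12 (SE 0.055). Trp53bp1 lay lower in males, from 8.88 to 9.89 (median 9.30) against 8.99 to 9.95 (median 9.49) in females, with a difference of -0.18 (SE 0.081). Its other probes differed by 0.078 and -0.17. In all of these genes the male and female ranges overlapped.

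By pathway, nucleotide excision genes had a male minus female median of 0.061 with 4 of 8 higher, and 0.073 with 5 of 8 higher without replicate 13. The medians were -0.18 in the checkpoint genes (0 of 3 higher), -0.17 in base excision repair (1 of 10 higher), -0.12 in end joining, -0.15 in mismatch repair and -0.015 in homologous recombination. Without replicate 13 they were -0.15, -0.086, -0.054, -0.064 and 0.083 in the same order, so homologous recombination turned to 3 of 3 higher in males. Beside them, a list of 22 cell cycle genes holding none of the 39 was lower in males in 22 of 22 cases, with a median of -0.49 (-0.31, with 1 higher, without replicate 13). None of the 22 was called with all lungs, beside 1.77% of probes, and 1 was called without replicate 13, Aurkb at -0.46 (adjusted p = 0.0330, limma), beside 2.23%. The endothelial list was higher in males in 9 of 9 cases (median 0.24) and the muscle list in 6 of 6 (median 1.08). Replicate 13, a female lung, was low in both lists, with median deviations from the other arrays of -1.85 and -4.68. Values of these 2 lists without it are not given here. The part of these cell differences in the sex differences of the repair genes was not tested here. No interaction of sex with irradiation was called in the 29 genes (0 of 29, beside 0% of probes) for either dose schedule, and none passed an unadjusted p under 0.05, beside 2.57% of probes for the fractionated and 2.06% for the acute schedule. The lowest p-values were those of Ung for the fractionated schedule (-0.79, SE 0.44, limma p = 0.0808) and of Lig4 for the acute schedule (-0.50, SE 0.28, limma p = 0.0800), both with an adjusted p of 1.00. For Ung the estimate was -0.35 without replicate 13.

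Fractionated replicate 13 held the highest values for most of the 29 genes. It is 1 lung and carries no test. It lay above all 41 other arrays in 19 of 29 genes, beside 23.8% of probes, and below all of them in 0 of 29, beside 27.8% of probes. It was at least 1 log2 unit above the median of the others in 13 of 29 genes (12.1% of probes) and at least 2 units above in 6 of 29 (3.2% of probes). Those 6 genes were Xrcc6, Lig1, Ung, Msh6, Brca2 and Mre11a.

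The Ku subunit Xrcc6 stood at 14.50 in this lung, against a median of 10.26 and a maximum of 10.71 in the other 41, which is 18.9-fold above the median. Other probes of Xrcc6 were 3.91 and 5.40 log2 units above their medians. Lig1 stood at 11.27 against a median of 7.96 and a maximum of 8.56 (9.96-fold). Ung, at 10.58 against 7.32 and 8.10 (9.59-fold), and Msh6, at 12.27 against 9.69 and 9.90 (5.96-fold), are both known to act on the replication fork as well as in repair. The recombination genes Brca2 (8.02 against a median of 5.77, 4.76-fold) and Mre11a (9.82 against 7.60, 4.69-fold) followed.

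Among the 29 genes, the pathways differed in this lung. Replicate 13 exceeded all others in 8 of 10 base excision genes (median 1.14 above the others' median, all but Ogg1 and Polb), 3 of 3 checkpoint genes, 3 of 3 end joining genes, 2 of 3 recombination genes and 2 of 2 mismatch repair genes. In nucleotide excision repair it did so in 1 of 8 genes, Ddb1, with a median of -0.18, and the lowest deviations of the 29 genes were those of Ercc2 (-0.41) and Ercc5 (-0.40). Other probes of these genes did not repeat this, deviating by 0.92 for Ercc2 and -0.043 for Ercc5. Another Rad23b probe deviated by 0.20, against -0.29 by the probe used. Among the genes that failed the detection filter, Fancd2, the Fanconi protein that is ubiquitinated at stalled forks, stood at 8.11 against a median of 5.25 and a maximum of 5.86 elsewhere. The replication checkpoint kinase Chek1 was detected on this array alone, at 5.96 against a maximum of 5.16 elsewhere.

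Genes of other cells moved with these values in replicate 13. All 22 of 22 cell cycle genes were above all other arrays (median deviation 3.84), among them the replicative helicase genes Mcm5 (12.59) and Mcm6 (11.52). Of 11 immature T cell markers with a probe, 8 were detected and above all other arrays, Cd8b1 was within their range, and Rag2 and Cd8a were not detected. Among the 8 were Rag1 at 11.25 against a median of 4.83, Dntt at 11.76 against 4.62 and Ptcra at 9.77 against 5.09. Of 6 mature T and NK cell markers, 4 were above all others, with the T cell receptor subunit Cd3e at 13.32 against 8.53, while Nkg7, at 5.20, was below all others. Endothelial genes were below all other arrays in 9 of 9 cases (median -1.85) and alveolar type 1 genes in 7 of 7. Club cell genes were below in 2 of 3 cases, Cyp2f2 at 12.31 and Aldh1a1 at 9.34, while Scgb1a1 at 14.97 was not. Alveolar type 2 genes were below in 3 of 8 cases, Sftpa1, Abca3 and Slc34a2. Of 17 targets of p53, which signals downstream of the checkpoint kinases, 1 was above and 6 were below all others (median -0.52), with Cdkn1a at -0.75. The part of these cells in the repair gene values was not tested.

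**Figure D3:**
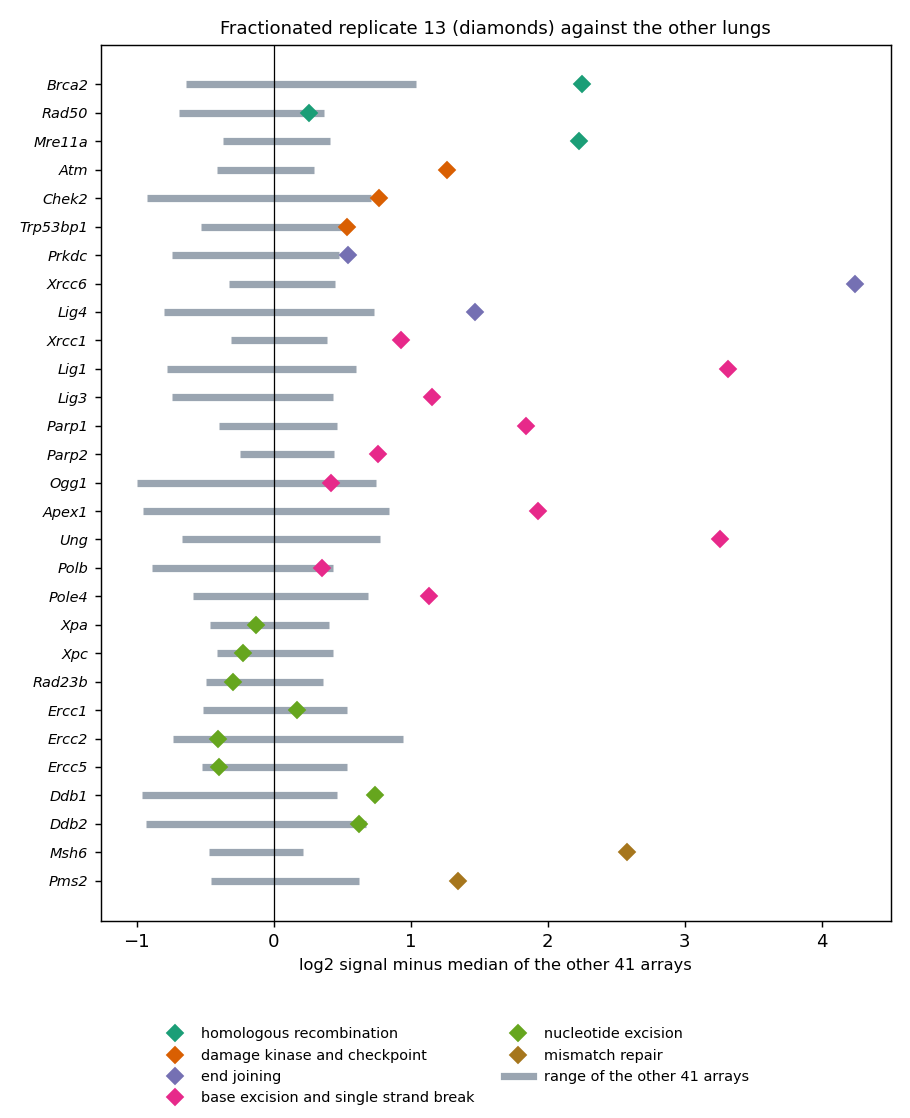
Log2 intensity of fractionated replicate 13 (diamonds) minus the median of the other 41 arrays for the 29 tested genes, with the range of those 41 arrays as a grey bar. Diamonds lie right of the bar for 19 genes, up to 4.24 for Xrcc6, and within it for 10 genes, 7 of them of nucleotide excision repair.

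Single genes also differed between slides, and what lay behind this was not tested. Over the 41 arrays other than replicate 13, the share of variance lying between slides was 9.47% to 75.6% in the 29 genes, with a median of 29.9%. It was highest in Lig3, at 7.89 ± 0.20 on slides 3 to 5 (SD, n = 17) against 8.45 ± 0.17 on the other slides (n = 24). Parp1 ran the other way, at 9.86 ± 0.13 on slides 3 to 5 against 9.53 ± 0.14, as did Xrcc1, at 8.65 ± 0.11 against 8.37 ± 0.11, and Ogg1, at 6.19 ± 0.24 against 5.51 ± 0.31. Each of 7 slides held lungs of all 3 groups. The lowest shares were those of Xrcc6 (9.47%), Msh6 (9.90%) and Xpc (10.3%). The share over all probes was not computed, so these shares have no background beside them.

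Since many repair genes serve replication, each was set against a cell cycle score, the mean of the 22 cell cycle genes, over 40 arrays. Replicate 13 and the only array of slide 8 were left out, and slide means were removed from both measures. The p-values came from permutation within slides, with adjustment over all 17927 tested probes, those of the score included. Shares of all probes are over the 17905 outside the score. Of the 29 genes, 10 were positively related to the score at an adjusted p under 0.05, beside 15.1% of all probes, and 4 negatively, beside 15.7% of all probes. The median r over the 29 genes was 0.069, beside -0.0079 over all probes.

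The positive relation was closest for Ung (Pearson r = 0.79, permutation adjusted p = 0.00042, Spearman rho = 0.79). It had a higher r than all but 0.285% of probes. Then came Xrcc6 (r = 0.68, rho = 0.61), the excision helicase Ercc2 (0.57, 0.59), Lig1 (0.57, 0.57) and Msh6 (0.54, 0.48), and Prkdc (0.49, 0.50), Parp1 (0.48, 0.50), Mre11a (0.48, 0.46), Pole4 (0.45, 0.41) and Chek2 (0.45, 0.44) completed the 10, with permutation adjusted p-values of 0.00094 to 0.0396. For Pole4 the adjusted p of rho was 0.0535.

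Negative relations were those of Xpa (r = -0.66, permutation adjusted p = 0.00042, rho = -0.68), Ercc1 (r = -0.50, rho = -0.48), Rad50 (r = -0.48, rho = -0.49) and Rad23b (r = -0.42, rho = -0.49). So 3 of the 4 genes lower in lungs with a higher score belong to nucleotide excision repair, whose gene Ercc2 ran the other way. Leaving out the 2 arrays farthest from the median score, 6 of the 10 positive genes passed, beside 12.9% of probes (Ung 0.78, Xrcc6 0.61, Ercc2 0.50, Lig1 0.49, Mre11a 0.47 and Parp1 0.47). Msh6 (0.37), Prkdc (0.43), Pole4 (0.39), Chek2 (0.33) and Rad23b (-0.37) kept their sign but no longer passed. Whether this came from those arrays or from the smaller number of arrays was not tested. Ercc5 (-0.46) passed in addition, giving 4 negative genes beside 14.4% of probes.

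Within the 2 sets of slides between which several genes differed, the sign of r was the same for all 14 genes. Ung had r = 0.79 both on slides 3 to 5 and on the other slides, Xrcc6 0.58 and 0.75, Lig1 0.57 and 0.57, and Xpa -0.63 and -0.72. Pole4 (0.75 and 0.26) and Chek2 (0.68 and 0.31) were further apart. On slides 3 to 5 (17 arrays), Ung alone was called positive, beside 1.09% of probes, and 0 of 29 genes negative, beside 0.715%. On the other slides (23 arrays), Ung and Xrcc6 were called positive, beside 4.87% of probes, and Xpa negative, beside 4.79%. With all 42 arrays and slide means removed, 12 of 29 genes were positive, beside 13.6% of probes, and 3 of 29 negative, beside 20.2%. On all 42 arrays with no slide mean removed, 17 of 29 were positive, beside 18.1% of probes, and 1 of 29 negative, beside 23.5%. Both settings of 42 arrays include replicate 13. Its cell cycle genes lay on average 3.82 above the other arrays' medians, against -0.49 to 0.68 in the others. The median r of the 29 genes was 0.54 and 0.50 there, beside 0.069 over the 40 arrays, so these counts are not independent of that 1 lung. Over the 40 arrays with sex and group removed as well as slide, 8 genes were positive, beside 14.6% of probes, and 5 negative, beside 15.1%. Ung (0.84), Xrcc6 (0.70), Mre11a (0.55), Ercc2 (0.53), Prkdc (0.48), Lig1 (0.45) and Msh6 (0.44) were among the 8, joined by Apex1 (0.44), while Pole4 (0.26), Chek2 (0.30), Parp1 (0.36) and Rad23b (-0.29) did not pass. A second probe of a gene did not always behave alike: r was 0.75 and 0.46 for other Xrcc6 probes, 0.47 for Parp1 and 0.44 for Msh6. It was 0.29 for another Lig1 probe and 0.29 for another Prkdc probe, neither of them called. For other probes it was -0.05 for Chek2, 0.08 for Ercc2 and 0.19 for Rad23b. Among genes without a call, other probes of Atm were called negative (-0.49 and -0.42). Of the other Trp53bp1 probes, that with r = 0.48 was called positive and that with 0.09 was not.

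**Figure D4:**
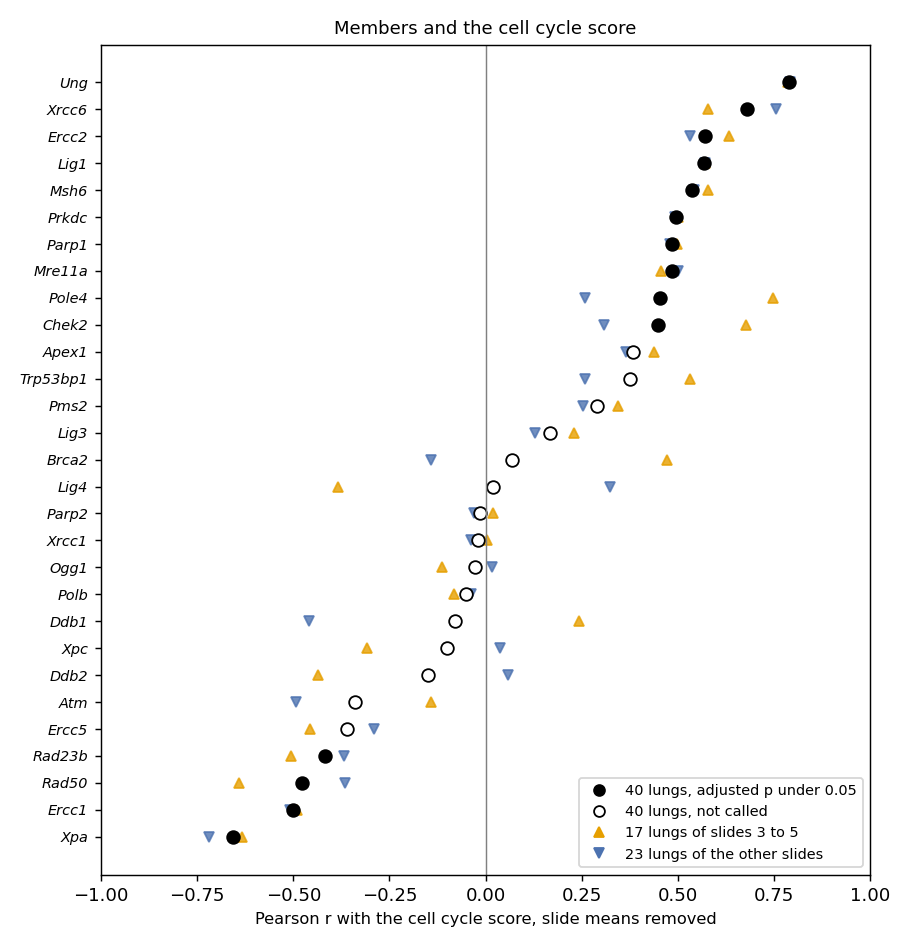
Pearson r of each tested gene with the cell cycle score over 40 arrays after removal of slide means (circles; filled where the permutation adjusted p is under 0.05), with r on slides 3 to 5 and on the other slides as triangles. Ung is at the top with 0.79 and Xpa at the bottom with -0.66.

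**Figure D5:**
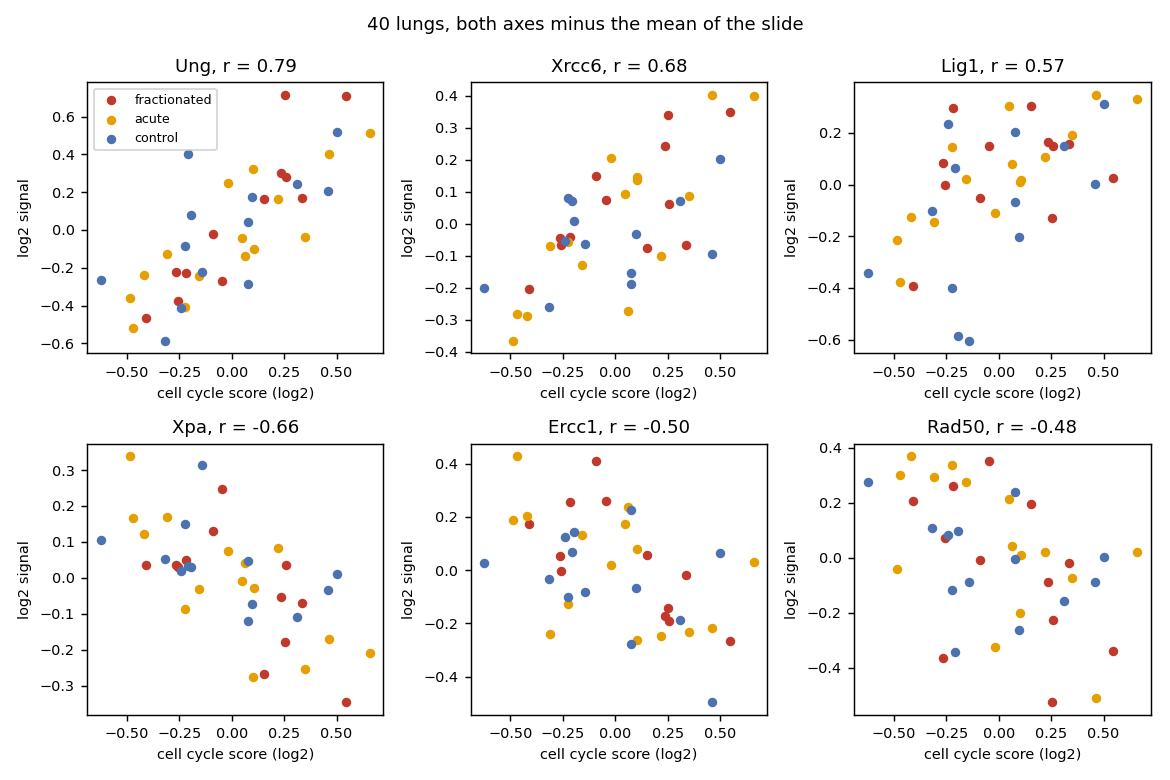
Log2 intensity against the cell cycle score, both minus the slide mean, in 40 lungs coloured by group, for Ung, Xrcc6, Lig1, Xpa, Ercc1 and Rad50. Ung, Xrcc6 and Lig1 slope upward (r = 0.79, 0.68 and 0.57) and Xpa, Ercc1 and Rad50 downward (r = -0.66, -0.50 and -0.48), with all 3 groups mixed along the axis.

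Replicate 13, which did not enter the relation over 40 arrays, lay above all other arrays in 9 of the 10 positively related genes (median deviation 2.04), in 0 of the 4 negatively related genes (median 0.020) and in 10 of the 15 without a call (median 0.76). Across the 29 genes, its deviation and r correlated at Pearson r = 0.66 and Spearman rho = 0.64, given as a description across genes that share arrays.

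E2F factors are known to drive genes of the G1 to S transition, so promoters were searched for 4 E2F core words. RefSeq (GRCm38.p6) promoters, from 250 bases before to 50 after the first listed start, were found for 32 of the 39 genes. The words TTTCCCGC, TTTGGCGC, TTTCGCGC and TTTGCCGC, on either strand, were present in 6 of 32 (18.8%), namely Brca2, Chek2, Mdc1, Xrcc6, Pole4 and Msh6, beside 2.32% of all 27025 promoters and 3.96% of the 8309 promoters of genes with a tested probe. They were in 4 of 9 positively related genes with a promoter, 0 of 3 negatively related genes, 1 of 12 genes without a call and 1 of 8 genes not tested. The word CCAAT, on either strand, was in 17 of 32 (53.1%), beside 37.9% of all promoters. These shares are a description with no test.

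The 4 positively related genes with a match are printed below with the matched bases in capitals, followed by Ung, which had the highest r and holds none of these words. The match began 46 bases before the start in Xrcc6 (chr15:82016119-82016418, + strand), 152 before in Chek2 (chr5:110839733-110840032, + strand) and 34 before in Pole4 (chr6:82652825-82653124, - strand), and 15 bases after the start in Msh6 (chr17:87974800-87975099, + strand). The Ung window is chr5:114130185-114130484, + strand. All are written 5′ to 3′ along the gene's strand.
Xrcc6: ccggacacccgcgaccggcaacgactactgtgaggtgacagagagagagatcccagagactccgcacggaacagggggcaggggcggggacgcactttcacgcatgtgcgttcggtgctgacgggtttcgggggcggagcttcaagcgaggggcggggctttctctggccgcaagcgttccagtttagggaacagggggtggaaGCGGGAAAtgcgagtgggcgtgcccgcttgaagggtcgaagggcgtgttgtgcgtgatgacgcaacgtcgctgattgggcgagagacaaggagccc
Chek2: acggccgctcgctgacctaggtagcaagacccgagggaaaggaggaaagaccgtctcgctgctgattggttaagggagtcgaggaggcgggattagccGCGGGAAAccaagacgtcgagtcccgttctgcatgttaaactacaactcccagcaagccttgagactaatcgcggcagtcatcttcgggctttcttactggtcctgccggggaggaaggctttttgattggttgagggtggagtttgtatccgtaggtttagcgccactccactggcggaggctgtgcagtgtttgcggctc
Pole4: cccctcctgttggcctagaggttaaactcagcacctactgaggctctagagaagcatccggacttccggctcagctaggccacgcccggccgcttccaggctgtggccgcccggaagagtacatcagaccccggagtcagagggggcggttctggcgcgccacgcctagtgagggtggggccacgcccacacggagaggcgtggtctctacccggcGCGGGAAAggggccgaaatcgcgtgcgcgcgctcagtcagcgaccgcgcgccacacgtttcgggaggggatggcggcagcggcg
Msh6: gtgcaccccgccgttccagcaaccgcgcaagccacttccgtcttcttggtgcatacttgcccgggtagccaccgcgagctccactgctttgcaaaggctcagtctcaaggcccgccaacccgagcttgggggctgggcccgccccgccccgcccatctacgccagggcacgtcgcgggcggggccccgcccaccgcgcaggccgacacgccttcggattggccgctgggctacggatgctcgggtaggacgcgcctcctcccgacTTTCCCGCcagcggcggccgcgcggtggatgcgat
Ung: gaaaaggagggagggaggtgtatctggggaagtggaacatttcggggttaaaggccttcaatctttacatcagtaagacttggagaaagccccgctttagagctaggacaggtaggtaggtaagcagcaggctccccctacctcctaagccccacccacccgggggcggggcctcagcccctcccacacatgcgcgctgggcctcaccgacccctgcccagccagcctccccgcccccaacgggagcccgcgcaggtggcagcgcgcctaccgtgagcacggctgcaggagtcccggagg

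Further genes of the same pathways, from lists beyond the 39, had no adjusted call in fractionated against control lungs (0%, limma). Other homologous recombination genes were higher in 10 of 10 cases (median 0.10), and in 4 of 10 without replicate 13 (median -0.0084). Other base excision and repair synthesis genes were higher in 16 of 18 cases with and without that lung (medians 0.12 and 0.059), among them the polymerase delta subunit Pold2 at 0.21 and the clamp loader subunit Rfc5 at 0.33 (0.12 and 0.15 without replicate 13). Other nucleotide excision genes were higher in 12 of 17 cases (median 0.092), and in 9 without replicate 13 (median 0.0070), with the transcription factor subunit Ccnh at 0.27 (unadjusted p = 0.0193), which was 0.17 without that lung. Checkpoint genes were higher in 13 of 17 (median 0.079; 10 and 0.013 without replicate 13), Fanconi genes in 7 of 8 (median 0.12; 6 and 0.011) and end joining genes in 2 of 5 with and without it. Among 13 genes of translesion synthesis and direct reversal, 8 were higher (median 0.032), and the alkylguanine transferase Mgmt, which removes alkyl groups from guanine, differed by 0.41 (SE 0.13, unadjusted limma p = 0.0029) in fractionated and by 0.33 in acute lungs against controls. Of the 17 targets of p53, 8 were higher (median -0.0048), with Phlda3 at 0.27 in fractionated and 0.24 in acute lungs.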

How the data were processed

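The authors' deposited, non-normalized table held Illumina BeadChip signal intensities with a detection p-value beside each; scanner settings are not given in the labels. Of 45281 probes, 34885 carried 1 gene symbol in the platform annotation, 18 several and 10378 none here. The deposited value table of log2 intensities, made by the authors from 41 of these arrays (the column of fractionated replicate 13 is empty), served as an alternative, which therefore also lacks that lung.

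In R 4.3.3 with limma 3.58.1, neqc corrected background from the detection p-values (offset 16), quantile-normalized all 42 arrays and took log2. Probes with detection p under 0.01 on at least 13 arrays were tested with lmFit and eBayes (trend), with group and sex as terms and Benjamini-Hochberg adjustment over 17927 probes. The number of arrays limits precision. No 2 columns were identical (0 pairs).

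Correlations used 100000 two-sided permutations, within slides where slide means were removed and otherwise across slides (smallest possible p 1e-05, Python 3.11.15, numpy 2.4.6). Their adjustment, planned over the listed genes alone, was made over all probes after the data were seen, and the relations with no slide mean on all 42 arrays and with sex and group removed were added then. Values were given for up to 8 genes of lowest p per comparison; genes beyond these complete a pathway, a list or a relation. The genes and lists were chosen with earlier results of these data known. The scripts were tested on simulated data.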

Additional observations from a re-analysis of the deposited data

How the results depend on the processing

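No paired analysis was possible because the labels carry no replicate numbers, and those used here follow accession order. Of 55 differences or correlations of single genes followed across the alternatives, 442 values kept their direction and side of the threshold, 7 newly passed it, 42 no longer passed it and 3 were reversed, with the cause not tested: in acute against control lungs Xpc was 0.062 under median scaling and Trp53bp1 -0.0079 with the mean of a gene's probes, and in fractionated against acute lungs Ddb2 was 0.12 on slides other than 3 to 5. The single genes followed were those of lowest p in each comparison and those called with the cell cycle score. The counts therefore leave out genes with smaller differences. Some of the genes left out turned direction without replicate 13, as Rad50, Atm, Xrcc1, Parp2 and Ogg1 did in fractionated against control lungs. Of the medians and counts, 174 values kept to the main ones and 31 moved. The median of fractionated against control was 0.16 on the other slides. The median of acute against control was 0.14 under median scaling, where the median of all probes was 0.11. Fractionated against acute had medians of -0.0088 without replicate 13, -0.0031 with slide as a block as well and -0.0093 in the authors' value table, which lacks that lung too, and -0.020 with all lungs under median scaling.

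By sex, 1 gene (Xpa) was called without replicate 13 (beside 2.23% of probes), with the authors' value table (2.23%) and with gene means (2.29% of genes), and 2 genes (Xpa and Pole4) with slide as a block, with replicate 13 (3%) or without it (4.84%). The probes called by sex numbered 538 with slide as a block, 868 with the block without replicate 13, 76 under median scaling, 186 with no detection filter, 148 on slides 3 to 5 and 35 on the other slides. The median by sex was -0.13 on the other slides. The median interaction with the fractionated schedule was -0.020 without replicate 13, 0.021 with the block as well, 0.0024 in the authors' value table, 0.034 on slides 3 to 5 and -0.29 on the others. The median interaction with the acute schedule was 0.10 on slides 3 to 5.

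Positive calls with the cell cycle score numbered 1 on slides 3 to 5, 2 on the other slides and 6 without the 2 farthest arrays. They numbered 17 on all 42 arrays, replicate 13 included, with no slide mean removed. Negative calls numbered 0, 1 and 1 on slides 3 to 5, on the other slides and on all 42 arrays with no slide mean removed.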

Other observations

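Further repair genes outside the 39 were also high in fractionated replicate 13. Of 10 other homologous recombination genes, 8 lay above all 41 other arrays, led by the DNA translocase genes Rad54b and Rad54l (4.27 and 3.76 log2 units above the others' median) and the helicase gene Blm (3.38). The same held for 12 of 18 other base excision and repair synthesis genes, led by the polymerase delta gene Pold1 (3.07), the clamp loader gene Rfc5 (2.66) and the flap nuclease gene Fen1 (2.60), and for 12 of 17 other nucleotide excision genes, with the single-strand binding gene Rpa2 at 2.43. Among 17 other checkpoint genes it held for 7, with Clspn, which brings Chek1 to its activating kinase, at 4.25 and the histone variant gene H2afx at 3.35. It held for 6 of 8 Fanconi genes, 4 of 13 translesion and direct reversal genes, 1 of 5 end joining genes and 0 of 2 mismatch repair genes, beside 23.8% of all probes. This is 1 lung with no test.

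Among the same wider lists, the demethylase gene Alkbh3, which reverses alkylation damage, was higher in male than in female lungs (difference 0.24, SE 0.052, limma adjusted p = 0.0083), 1 of 13 translesion and direct reversal genes called by sex, beside 1.77% of all probes. Of 10 other homologous recombination genes, 0 were called by sex with all lungs, and 1 without replicate 13, beside 2.23% of probes: Rad54b was lower in male lungs (-0.39, limma adjusted p = 0.0366).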
